A study of Mus musculus with 18 samples.

Results

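The Cyp3a genes encode the cytochrome P450 enzymes of subfamily 3A, and 8 of them were followed through all 18 livers of the series: Cyp3a11, Cyp3a13, Cyp3a16, Cyp3a25, Cyp3a41a, Cyp3a41b, Cyp3a44 and Cyp3a59. They were taken by symbol from a table of 31165 genes. In all, 7 of the 8 had a mean of 10 or more over the livers and were tested together with the other genes above that mean, 14104 in all. Cyp3a41b, with a mean of 7.22, fell below it and is described by its values and by a fit without the filter. The table holds 2 further rows with a Cyp3a symbol, Cyp3a57 and the pseudogene Cyp3a63-ps, which are given for comparison only.

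The series asks what a synthetic microRNA does when it is given to newborn mice. Pups of the strain C57BL/6J were injected into the abdomen within days of birth, on P1 and P3, either with a mimic of miR-497a-5p or with a scrambled mimic of the same kind that served as control. Stranded mRNA libraries were made from livers of P5, P7 and P14. This gave 6 groups of 3 livers, named below by day, injection and replicate number. Every animal was injected, so the age comparisons are between injected pups and the group that stood for untreated liver received the scrambled mimic. Per the protocol a pup received either 100 or 10 mg per kg, and which of these applied to a given liver is not labelled. The labels do not tie livers to litters, so the p-values measure the spread between these livers.

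Enzymes of subfamily 3A sit in the endoplasmic reticulum of hepatocytes and oxidise steroids, bile acids and many drugs, with electrons passed on by cytochrome P450 oxidoreductase. Their genes are known targets of the nuclear receptors PXR and CAR, which sense drugs and bile acids, together with HNF4A, C/EBP factors and FOXA factors. In mouse liver Cyp3a16 is known as a form of fetal and newborn animals, Cyp3a11, Cyp3a13 and Cyp3a25 as forms of the adult, and Cyp3a41 and Cyp3a44 as forms that adult females carry at higher levels than males, under the control of growth hormone. The set was put together as a change from newborn to adult forms, and the values below show only part of such a change by P14.

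Values are scaled counts, that is gene counts brought to a common scale between libraries and rounded by the authors. They summed to between 3954405 and 4248257 per liver, and 19198 to 22132 genes were above 0 in all livers but P7 scrambled replicate 3, where 30412 were. The livers carried hepatocyte RNA throughout: Alb, the albumin gene, lay between 1672 and 2886. Summed Y-linked genes were high in 9 livers and Xist, the X-inactivation RNA, in the other 9, except that P5 mimic replicate 3 and P7 scrambled replicate 3 carried both, with Xist at 1568 and 1484 and Y-linked sums of 116 and 94. To a lesser degree P7 scrambled replicate 2 had Xist at 66 beside a Y-linked sum of 1593. In the other livers with high Y-linked sums Xist lay between 0 and 17. Muscle markers summed to 1452 in P7 scrambled replicate 1 and to 366 in P7 scrambled replicate 3, and to 1 to 20 elsewhere. P5 scrambled replicate 2 had the highest Alb and stood above the other P5 livers for several members. Counts of members called are given with and without P5 mimic replicate 3, P7 scrambled replicate 3 and P5 scrambled replicate 2. P7 scrambled replicate 1, which had the highest muscle sum, stayed in that reduced set, so the reduced set is not free of muscle RNA. In whole liver, fewer cells of a type and less RNA per cell cannot be told apart.

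All members lie on chromosome 5 (GRCm38, coordinates as in the table). Cyp3a13 stands alone at 137892932 to 137921619, and the others lie in a cluster that runs for 768 kb from the start of Cyp3a57 at 145345287 to the end of Cyp3a59 at 146113285. Within it Cyp3a16 (145436309 to 145469723), Cyp3a41b (145558664 to 145584730), Cyp3a41a (145694049 to 145720136), Cyp3a44 (145773983 to 145805874), Cyp3a11 (145854426 to 145879964) and Cyp3a25 (145977196 to 146009617) are read from the minus strand. Cyp3a59 (146079267 to 146113285) is read from the plus strand. By coding sequence the members fell into 3 sets. Cyp3a11, Cyp3a16, Cyp3a41a, Cyp3a41b and Cyp3a44 shared 92.4% to 99.9% of their bases with each other, Cyp3a25 and Cyp3a59 shared 97.5%, and Cyp3a13 shared at most 76.5% with any other member. Cyp3a41a and Cyp3a41b differed at 2 of 1512 coding bases.

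This likeness limits which gene a read can be given to. Of the 50-base stretches of its longest coding transcript, 100% of Cyp3a13, 89.3% of Cyp3a16 and 85.2% of Cyp3a11 occurred in the transcript of no other gene. The share was 73.6% for Cyp3a44, 73.2% for Cyp3a25 and 72.0% for Cyp3a59, the last of which shared most with Cyp3a25. For Cyp3a41a it was 1.39% and for Cyp3a41b 6.5%, so reads of the pair can hardly be told apart and their separate values are uncertain. With 100-base stretches the shares were 9.18% and 11.8% for the pair and at least 93.95% for the other members. Read length, the treatment of reads that match several genes and the use of strand in counting are not given in the sources used here.

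**Figure D1:**
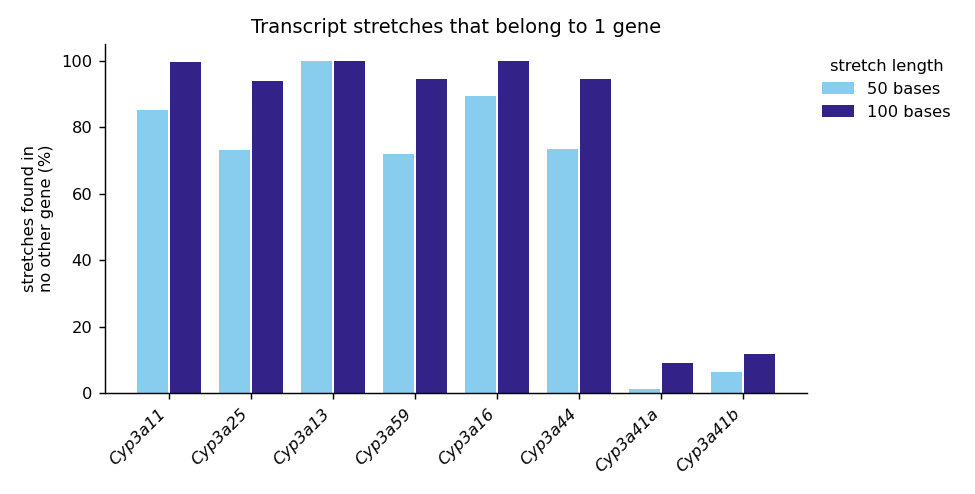
Share of all 50-base (light) and 100-base (dark) stretches of each member's transcript, in percent, that occur in no other gene's transcript (GENCODE M21). Cyp3a41a and Cyp3a41b stay under 12% at both lengths, whereas the other members reach 72.0% or more.

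The promoters show the same sets and are printed because members with near-identical sequence just before the start differed in level and in age course. RefSeq windows of 300 bases (build GRCm38.p6), reaching 250 bases before and 50 bases after each start, were found for all 8 members, and the 250 bases before the start are shown for 6 of them, 5′ to 3′. Capitals mark matches on either strand to CAAAGTCCA, a form of the HNF4A motif, to TGTTTAC, a core FOXA motif, and to AGGTCA or AGTTCA, half-sites that nuclear receptors use. The first pair, Cyp3a25 at chr5:146009619-146009868 on the minus strand and Cyp3a59 at chr5:146079008-146079257 on the plus strand, belongs to genes that rose with age.
Cyp3a25: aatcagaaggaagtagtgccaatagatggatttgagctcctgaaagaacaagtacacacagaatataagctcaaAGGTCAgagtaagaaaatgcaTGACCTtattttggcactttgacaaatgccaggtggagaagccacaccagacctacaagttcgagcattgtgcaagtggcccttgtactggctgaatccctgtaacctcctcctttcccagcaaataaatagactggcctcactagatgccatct
Cyp3a59: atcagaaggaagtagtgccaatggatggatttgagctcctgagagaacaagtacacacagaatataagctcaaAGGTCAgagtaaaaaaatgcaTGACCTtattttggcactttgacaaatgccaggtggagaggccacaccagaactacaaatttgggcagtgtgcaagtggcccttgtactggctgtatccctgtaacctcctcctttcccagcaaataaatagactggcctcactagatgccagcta

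Cyp3a11 at chr5:145879855-145880104 on the minus strand, which also rose, and Cyp3a16 at chr5:145469724-145469973 on the minus strand, Cyp3a44 at chr5:145805875-145806124 on the minus strand and Cyp3a41a at chr5:145720137-145720386 on the minus strand, which did not rise from P7 to P14, make up the second set. For Cyp3a11 the RefSeq start lies within the gene as the table gives it.
Cyp3a11: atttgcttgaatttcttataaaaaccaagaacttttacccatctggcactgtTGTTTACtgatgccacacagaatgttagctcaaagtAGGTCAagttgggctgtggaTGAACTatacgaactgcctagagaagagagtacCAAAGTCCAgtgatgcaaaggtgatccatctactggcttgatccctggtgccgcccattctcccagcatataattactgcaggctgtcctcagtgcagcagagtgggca
Cyp3a16: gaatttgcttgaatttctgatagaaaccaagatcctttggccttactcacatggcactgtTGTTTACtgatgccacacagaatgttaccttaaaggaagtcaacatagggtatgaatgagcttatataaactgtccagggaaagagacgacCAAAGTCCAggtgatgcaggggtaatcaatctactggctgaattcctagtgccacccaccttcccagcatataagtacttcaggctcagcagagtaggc
Cyp3a44: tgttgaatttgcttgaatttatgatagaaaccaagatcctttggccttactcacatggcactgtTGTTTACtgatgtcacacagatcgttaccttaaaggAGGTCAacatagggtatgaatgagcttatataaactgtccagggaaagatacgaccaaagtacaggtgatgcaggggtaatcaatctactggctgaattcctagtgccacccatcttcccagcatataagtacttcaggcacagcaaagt
Cyp3a41a: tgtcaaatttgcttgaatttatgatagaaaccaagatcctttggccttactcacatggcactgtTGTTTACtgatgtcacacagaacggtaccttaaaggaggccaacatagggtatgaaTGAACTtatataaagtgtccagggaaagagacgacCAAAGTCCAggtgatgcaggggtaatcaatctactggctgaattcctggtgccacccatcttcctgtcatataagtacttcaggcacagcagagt

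Over their windows Cyp3a25 and Cyp3a59 were 95.7% identical, Cyp3a16 and Cyp3a44 93.4%, Cyp3a16 and Cyp3a41a 92.1%, and Cyp3a11 and Cyp3a16 74.8%. Between the sets identity was 49.2% to 53.7%. The letters CAAAGTCCA, held by 0.477% of 27025 windows, stood in Cyp3a11 from base -109, in Cyp3a16 from -99 and in both Cyp3a41 genes from -95, counted from the start. Cyp3a44 has CAAAGTACA there, which differs by C7A (positions counted from the 5′ end of CAAAGTCCA). TGTTTAC, held by 3.55% of windows, was found in the same 4 genes and in Cyp3a44. AGGTCA, held by 16.0% of windows, stood on both strands in Cyp3a25 and Cyp3a59 and on 1 strand in Cyp3a11 and Cyp3a44, while AGTTCA, held by 14.0%, was found on the minus strand in Cyp3a11 and the Cyp3a41 genes. Cyp3a13 held none of the 4 motifs. The motifs do not overlap each other in these windows, and a match is a description of letters, not a binding site.

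**Figure D2:**
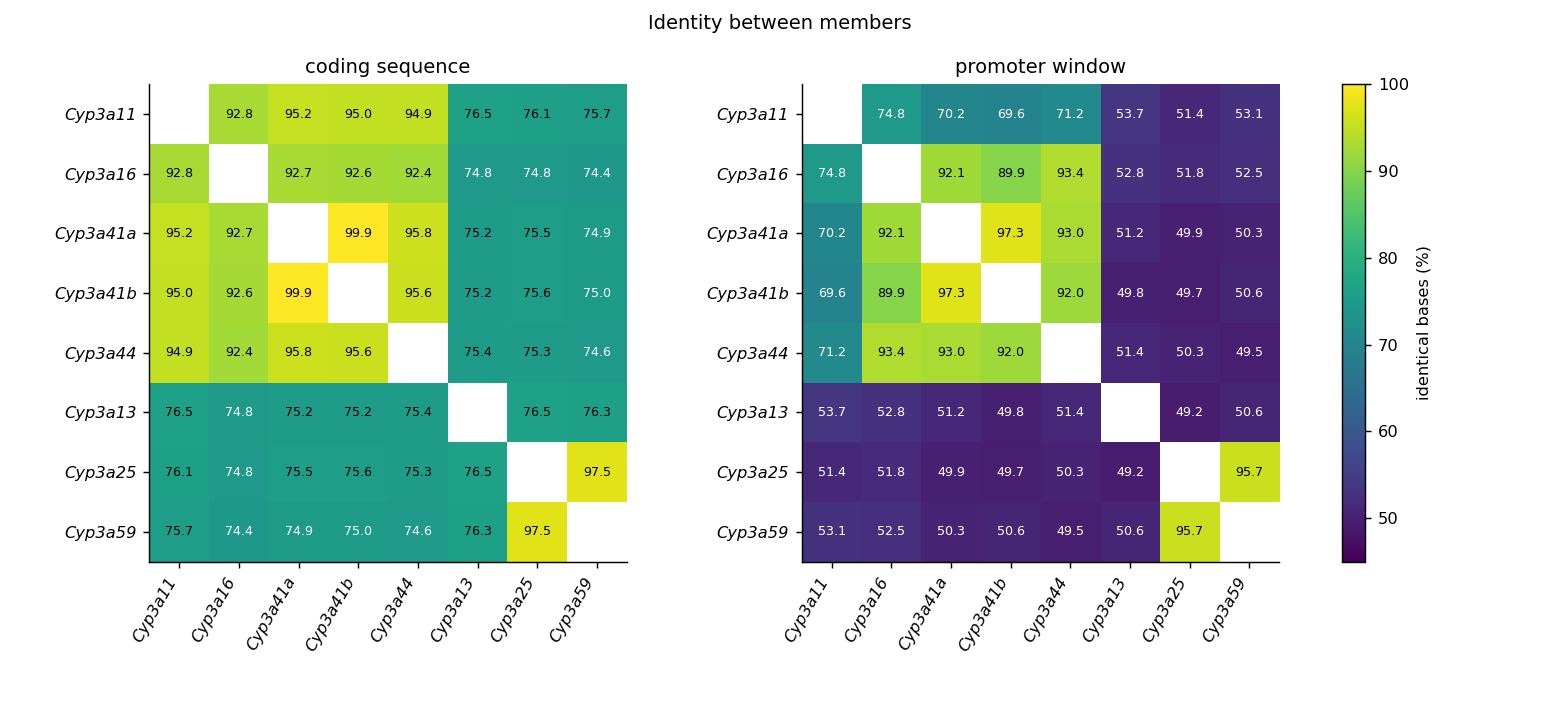
Percent of identical bases for each pair of members in the coding sequence (left) and in the 300-base promoter window (right), with brighter colours for higher identity. Cyp3a11, Cyp3a16, Cyp3a41a, Cyp3a41b and Cyp3a44 form a block of 92.4% or more in the coding sequence, in which the promoter of Cyp3a11 stands apart at 69.6% to 74.8%.

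Levels were compared between genes per kb of transcript only. At P5 the order was Cyp3a11 with 533 ± 84.7 scaled counts per kb (SD, n = 6), Cyp3a16 with 494 ± 47.3, Cyp3a44 with 422 ± 65.2, Cyp3a25 with 352 ± 38.6, Cyp3a13 with 208 ± 32.9 and Cyp3a59 with 110 ± 23.8. Cyp3a41a followed with 13.3 ± 1.96 and Cyp3a41b with 3.96 ± 1.45. The first 4 overlapped with their neighbours in this order within 1 SD, and the lower members did not. At P14 Cyp3a11 led with 655 ± 41.2, clear of Cyp3a16 at 531 ± 25.6 and Cyp3a25 at 515 ± 58.3, which overlapped. Cyp3a44 followed with 380 ± 38.8 per kb, Cyp3a13 with 311 ± 43.5 and Cyp3a59 with 285 ± 40.3, each overlapping with the next, and then Cyp3a41a with 5.26 ± 1.72 and Cyp3a41b with 0.969 ± 0.613. This order rests on the length of 1 transcript a gene. Per kb of all exons merged, Cyp3a11 held 13.3% of the family's summed level at P5, below Cyp3a16 (27.0%), Cyp3a44 (23.0%) and Cyp3a25 (18.4%), and 13.1% at P14, where Cyp3a13 (13.4%) also passed it. Per kb of transcript with 50-base stretches found in no other gene, Cyp3a41a came first at P5 with 26.4%. That rank is uncertain, as it rests on 28 such stretches of 2011 in Cyp3a41a, against 1956 of 2295 in Cyp3a11. Cyp3a41b held 1.69% by the same measure. Cyp3a11 and Cyp3a16, at 0.568 and 0.512 scaled counts per base over the 18 livers, were among 240 of 14096 genes above 0.5. Alb stood at 1.03 and the highest gene at 1.43. No source used here says how duplicate reads were treated, and a limit on the values of such abundant transcripts was not tested.

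**Figure D3:**
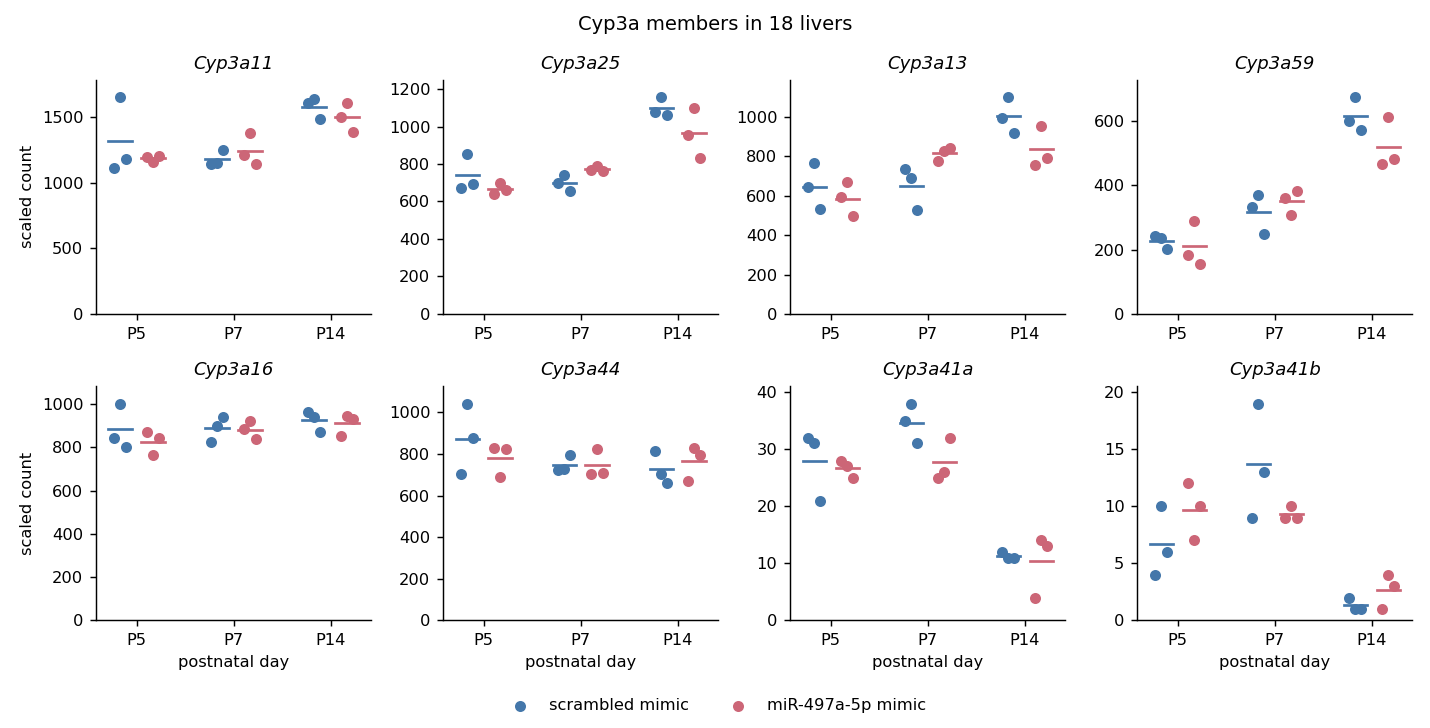
Scaled counts of the 8 members (y, linear, from 0) in each of the 18 livers by postnatal day (x), with scrambled in blue and miR-497a-5p mimic in red, 3 livers a group, and a line at each group's mean. Cyp3a59 climbs from 156 to 289 at P5 to 465 to 673 at P14, Cyp3a41a drops to 14 or less at P14, and Cyp3a16 stays between 763 and 1003.

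Between P7 and P14 the largest rise among the members was that of Cyp3a59, a close relative of Cyp3a25. Its scaled counts at P5 were 243, 237 and 203 in scrambled and 184, 289 and 156 in mimic livers. At P7 they were 331, 369 and 249 in scrambled and 361, 306 and 381 in mimic livers, and at P14 600, 673 and 570 in scrambled and 465, 612 and 481 in mimic livers. All 6 P14 livers lay above all 12 earlier ones, and the P5 and P7 ranges overlapped. Cyp3a59 rose by 0.62 ± 0.13 on the log2 scale from P5 to P7 (± SE here and below, adjusted p = 0.00481 by limma) and by 0.77 ± 0.13 from P7 to P14 (adjusted p = 0.000105). The first step did not pass in scrambled livers alone, at 0.46 ± 0.18 (adjusted p = 0.162). From P5 to P14 the rise was 1.39 ± 0.13, or 2.61-fold (adjusted p = 5.78e-08).

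Cyp3a25 was the member nearest to it in sequence. At P5 its scaled counts were 672, 855 and 694 in scrambled and 642, 696 and 659 in mimic livers, and at P7 they were 700, 742 and 658 in scrambled and 770, 791 and 763 in mimic livers. At P14 they were 1076, 1157 and 1059 in scrambled and 957, 1099 and 833 in mimic livers. Every P14 liver lay above every P7 liver, and the lowest P14 liver, mimic replicate 3, was passed by P5 scrambled replicate 2 alone among the earlier ones. Cyp3a25 rose by 0.48 ± 0.07 from P7 to P14 (adjusted p = 2.88e-05 by limma) and had moved by 0.07 ± 0.07 from P5 to P7 (adjusted p = 0.465). The ratio of Cyp3a59 to Cyp3a25 ran from 0.237 to 0.415 at P5, from 0.378 to 0.499 at P7 and from 0.486 to 0.582 at P14, so the pair did not keep a fixed ratio.

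Cyp3a11, the main drug-metabolising form of adult mouse liver, had scaled counts of 1113, 1650 and 1181 in scrambled and 1196, 1157 and 1203 in mimic livers at P5. At P7 the values were 1139, 1150 and 1249 in scrambled and 1213, 1375 and 1138 in mimic livers, and at P14 1604, 1638 and 1484 in scrambled and 1498, 1607 and 1386 in mimic livers. P14 livers all lay above P7 livers, whereas P5 scrambled replicate 2 exceeded every other liver of the series. Cyp3a11 rose by 0.34 ± 0.08 from P7 to P14, or 1.27-fold (adjusted p = 0.00203 by limma). From P5 to P14 it rose by 0.31 ± 0.08 (adjusted p = 0.00409), and by 0.40 without P5 scrambled replicate 2. In scrambled livers alone the latter rise was 0.28 ± 0.12 and did not pass (adjusted p = 0.0650).

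Cyp3a13, the member outside the cluster, had scaled counts of 642, 764 and 532 in scrambled and 593, 669 and 496 in mimic livers at P5. At P7 they were 735, 688 and 528 in scrambled and 779, 827 and 841 in mimic livers, and at P14 997, 1101 and 921 in scrambled and 756, 955 and 794 in mimic livers. In scrambled livers P14 stood clear of both earlier days, whereas in mimic livers the P7 and P14 ranges overlapped. Over both injections Cyp3a13 rose by 0.33 ± 0.10 from P7 to P14 (adjusted p = 0.0104 by limma) and by 0.58 ± 0.10 from P5 to P14 (adjusted p = 9.03e-05). From P5 to P7 the difference was 0.25 ± 0.10 (adjusted p = 0.0719). Cyp3a13 is also known from the intestine. The sum of 6 intestine markers lay between 906 and 1697. Sis, Lct and Cdx2 together came to 0 to 8 in all livers but P7 scrambled replicate 3, where they came to 57. Apoa4 lay between 493 and 1331, Fabp2 between 295 and 436 and Vil1 between 5 and 31. From P7 to P14 Fabp2 rose by 0.23 ± 0.09 (adjusted p = 0.0296 by limma). It was 1 of 3 tested and none fell, against 24.0% and 26.3% of all genes. From P5 to P14 Apoa4 and Vil1 fell and none rose, against 24.8% and 23.9%. The part of intestine RNA in the values of Cyp3a13 was not tested.

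Cyp3a16, the newborn form, neither fell nor passed the test as rising. Its scaled counts were 843, 1003 and 804 in scrambled and 870, 763 and 843 in mimic livers at P5, 824, 901 and 942 in scrambled and 887, 923 and 837 in mimic livers at P7, and 964, 941 and 871 in scrambled and 855, 947 and 931 in mimic livers at P14. The 3 days overlapped, and its coefficient of variation over the 18 livers was 7.06%, against 12.2% to 42.9% for the other members tested. The difference was 0.05 ± 0.06 from P7 to P14 (adjusted p = 0.513 by limma) and 0.11 ± 0.06 from P5 to P14 (adjusted p = 0.173). Without P5 scrambled replicate 2 the latter became 0.16 and passed the threshold (adjusted p = 0.0356), in the upward direction. A fall of this newborn form was thus not seen in these values by P14. Whether a limit on the values of abundant transcripts kept them steady was not tested.

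Cyp3a44, a female form of the adult, also passed no age test over all livers. At P5 it had 706, 1043 and 875 scaled counts in scrambled and 830, 692 and 826 in mimic livers, at P7 724, 726 and 794 in scrambled and 705, 824 and 708 in mimic livers, and at P14 814, 703 and 663 in scrambled and 668, 830 and 795 in mimic livers. The days overlapped. From P7 to P14 it differed by -0.01 ± 0.09 (adjusted p = 0.960 by limma), a value whose sign changed with the scaling, and from P5 to P14 by -0.14 ± 0.09 (adjusted p = 0.193). The latter passed the threshold under quantile normalization, at -0.20 (adjusted p = 0.0456), and without P5 scrambled replicate 1, at -0.22 (adjusted p = 0.0345).

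The 2 Cyp3a41 genes, forms of the female adult liver, were the members that fell. Their scaled counts were low. Per kb of unique 50-base stretches Cyp3a41a came to 976 at P5 and Cyp3a41b to 62.3, but Cyp3a41a holds only 28 such stretches of 2011. The level of Cyp3a41a per unique length is therefore uncertain. Cyp3a41a had 32, 31 and 21 scaled counts in scrambled and 28, 27 and 25 in mimic livers at P5, then 35, 38 and 31 in scrambled and 25, 26 and 32 in mimic livers at P7. At P14 it had 12, 11 and 11 in scrambled and 4, 14 and 13 in mimic livers, all below every earlier liver. Cyp3a41a fell by 1.51 ± 0.24 on the log2 scale from P7 to P14, or 2.84-fold (adjusted p = 5.04e-05 by limma), and by 1.33 ± 0.24 from P5 to P14 (adjusted p = 0.000131). Cyp3a41b lay between 4 and 19 at P5 and P7 and between 1 and 4 at P14. In the fit without the filter on low values its difference from P7 to P14 was -2.11 ± 0.34 (adjusted p = 8.43e-05). Since reads of the 2 can hardly be told apart, they were also summed, and the sum differed by -1.72 ± 0.23 from P7 to P14 (adjusted p = 9.94e-06).

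Of the 7 members tested, 4 rose from P7 to P14 (Cyp3a11, Cyp3a13, Cyp3a25 and Cyp3a59) and 1 fell (Cyp3a41a), where 24.0% of all genes tested rose and 26.3% fell. The members' median difference was 0.33, and that of all genes 0.01. From P5 to P14 the same 4 rose and Cyp3a41a fell, against 23.9% and 24.8% of all genes. From P5 to P7 Cyp3a59 rose and no member fell, against 13.7% and 13.2%. All 6 P14 livers were above all 12 earlier ones for 1 of the 7, Cyp3a59, where this held for 5.43% of genes, and below them for 1, Cyp3a41a, against 10.4%. Without the 3 livers named above, 2 members passed from P5 to P7 (Cyp3a59 and Cyp3a13), 5 from P7 to P14 and 6 from P5 to P14, Cyp3a16 being the added one.

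Markers of red cells fell over the same days. The sum of 5 of them ran from 5300 to 7384 at P5, from 3856 to 5863 at P7 and from 575 to 1442 at P14. With the level of these markers as a covariate no member passed at either step to P14, and of all genes tested 1 passed from P7 to P14 against 7100 without the covariate. The standard errors grew, for Cyp3a25 from 0.07 to 0.31. From P7 to P14 this fit gave 0.69 ± 0.31 for Cyp3a25, 0.51 ± 0.36 for Cyp3a11 and -1.68 ± 1.04 for Cyp3a41a. It gave 0.34 ± 0.56 for Cyp3a59 and 0.04 ± 0.44 for Cyp3a13. Since these markers fell so far by P14, the fit can hardly tell their level from age. Beyond this fit the part of the red cell level in the age differences was not tested. From P7 to P14 24.0% of all genes rose and 26.3% fell, the shares to set beside each marker count that follows. Hepatocyte markers, of which 2 of 6 rose and 1 fell from P7 to P14, summed to 10771 to 15064 at P7 and to 11163 to 15067 at P14. Of 4 Kupffer cell markers 3 fell, with sums of 2801 to 3711 and 2440 to 3022, and of 4 bile duct markers 1 rose. Of 5 muscle markers 2 fell, with sums of 2 to 1452 at P7 and 1 to 17 at P14. Transcript length also weighed differently by day. The rank correlation of a liver's values, taken against each gene's mean, with transcript length ran from -0.376 to 0.208 at P5. It ran from 0.0584 to 0.515 at P7 and from -0.252 to 0.0203 at P14, so all P7 livers lay above all P14 livers. The part of length in the age differences was not tested.

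**Figure D4:**
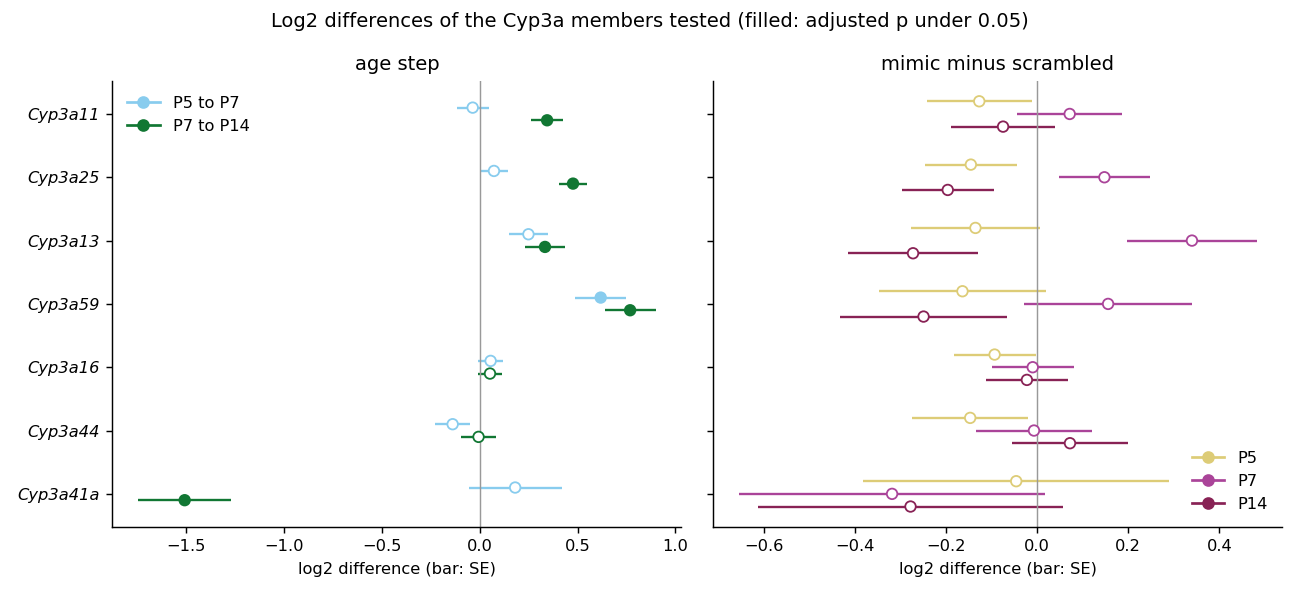
Log2 differences (x) of the 7 members tested for the age steps (left) and for mimic minus scrambled at each day (right), with bars of 1 SE from the limma fit. Filled points have an adjusted p under 0.05. In the age panel Cyp3a59 is filled at both steps and Cyp3a41a stands at -1.51, whereas every point of the mimic panel is open.

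The makeup of the family's transcripts moved with age. Summed over the 8 members, the level was 2136 ± 248 scaled counts per kb at P5 (SD, n = 6), 2214 ± 95.8 at P7 and 2684 ± 202 at P14. Cyp3a11 held 24.9% of it at P5 and 24.4% at P14. The share of Cyp3a59 went from 5.18% to 10.6%, that of Cyp3a25 from 16.5% to 19.2% and that of Cyp3a13 from 9.75% to 11.6%. Cyp3a44 went from 19.7% to 14.2%, Cyp3a16 from 23.2% to 19.8%, Cyp3a41a from 0.624% to 0.195% and Cyp3a41b from 0.185% to 0.0360%. The share of Cyp3a16 was 21.8% to 24.3% at P5 and 18.8% to 21.8% at P14, so it became smaller although its own level did not pass the test. These shares rest on the lengths used. Per kb of all exons merged, Cyp3a11 held 13.3% and 13.1%. Per kb of transcript with 50-base stretches found in no other gene, Cyp3a11 and Cyp3a16 changed by 3.66 and 0.858 points in place of -0.427 and -3.34. By this measure Cyp3a41a went from 26.4% to 10.1%. It holds only 28 such stretches, so its share, and with it the shares of the other members, is uncertain.

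**Figure D5:**
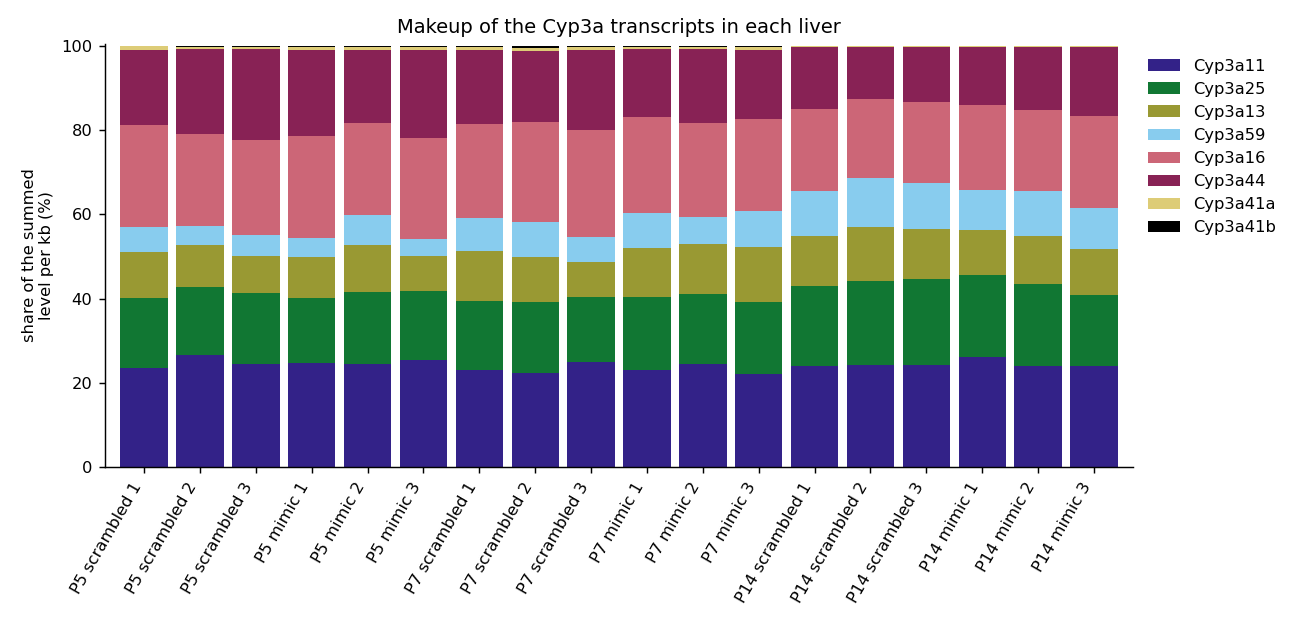
Share (y, percent) of each member in the summed level per kb of the 8 members, 1 bar for each of the 18 livers (x). The band of Cyp3a59 widens from 5.18% on average at P5 to 10.6% at P14 and that of Cyp3a44 narrows from 19.7% to 14.2%.

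Relative to Cyp3a16, the steadiest member, the others moved as their own values did. The ratio of Cyp3a25 to Cyp3a16 ran from 0.738 to 0.912 at P5, from 0.699 to 0.912 at P7 and from 0.895 to 1.23 at P14. That of Cyp3a11 to Cyp3a16 ran from 1.28 to 1.49 at P7 and from 1.49 to 1.75 at P14, and that of Cyp3a59 to Cyp3a16 from 0.264 to 0.455 and from 0.517 to 0.715. The ratio of Cyp3a44 to Cyp3a16 was 0.795 to 0.893 at P7 and 0.747 to 0.876 at P14, with overlap.

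The 2 rows outside the set showed low or uneven values. Cyp3a57, a plus-strand gene at the cluster's first end whose promoter holds the AGGTCA matches of Cyp3a25 and Cyp3a59, had 17 to 45 scaled counts at P5, 9 to 31 at P7 and 10 to 23 at P14. It fell by 0.78 ± 0.24 from P5 to P14 (adjusted p = 0.0125 by limma), a call lost under quantile normalization (adjusted p = 0.0641) and within either injection. With the red cell covariate it was at -1.79 ± 1.16 and did not pass. From P7 to P14 Cyp3a57 fell by 0.94 ± 0.34 in scrambled livers (adjusted p = 0.0418 by limma). In mimic livers it differed by 0.55 ± 0.34 (adjusted p = 0.229). Cyp3a57 and Cyp3a59 have coding sequences 94.2% identical and passed from P5 to P14 in opposite directions in the fit of all livers. For Cyp3a57 this rests on low values and on a call that the fits named above lost. The pseudogene Cyp3a63-ps had 119 to 229 at P5, 147 to 206 at P7 and 140 to 283 at P14, and 18.02% of its 50-base stretches were shared with Cyp3a44. Its difference from P7 to P14 was 0.16 ± 0.15 (adjusted p = 0.375). In mimic livers alone it rose by 0.57 ± 0.21 (adjusted p = 0.0458), and in scrambled livers the difference was -0.25 ± 0.21.

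The study's own comparison set the miR-497a-5p mimic against the scrambled mimic. No member passed the test at P5, where 0% of genes did, at P7 (0.00709% of genes) or at P14 (0.0213%). None passed for the effect averaged over the days (0.00709% of genes) or for a difference of the effect between days (0.00709%). Over the 7 members the log2 differences ran from -0.16 to -0.05 at P5, from -0.32 to 0.34 at P7 and from -0.28 to 0.07 at P14. At an unadjusted p under 0.05, 0, 1 and 0 members passed at the 3 days, against 266, 1073 and 763 of all genes, by limma. Cyp3a41b, in the fit without the filter, differed by 0.52 ± 0.48 at P5, -0.45 ± 0.48 at P7 and 0.58 ± 0.48 at P14. With standard errors between 0.09 and 0.34 for single members tested, differences of such size were not resolved.

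Cyp3a13 at P7 was the member furthest from 0 in its standard errors. Its 3 mimic livers, at 779 to 841, lay above its 3 scrambled livers, at 528 to 735, a difference of 0.34 ± 0.14 (unadjusted p = 0.0274, adjusted p = 0.566 by limma). Without P7 scrambled replicate 3 the difference was 0.20, and without P7 scrambled replicate 1 it was 0.44. These 2 livers carried muscle markers, with sums of 366 and 1452, against 20 in the third scrambled liver and 2 to 4 in the mimic livers. Cyp3a25 was likewise higher in all P7 mimic livers (763 to 791 against 658 to 742), by 0.15 ± 0.10 (adjusted p = 0.834), and Cyp3a59 differed by 0.16 ± 0.18 (adjusted p = 0.954) with overlap. At P14 the differences of the 3 genes were -0.27 ± 0.14 for Cyp3a13, -0.20 ± 0.10 for Cyp3a25 and -0.25 ± 0.18 for Cyp3a59, with adjusted p-values of 0.946, 0.937 and 0.986. Cyp3a13 has the longest transcript of the members, 2956 bases, and the rank correlation of a liver's values with transcript length ran from 0.0584 to 0.515 in the P7 mimic livers and from 0.163 to 0.453 in the P7 scrambled livers. Hepatocyte markers summed to 13740 to 15064 in the P7 mimic livers and to 10771 to 14285 in the P7 scrambled livers. At P14 the red cell markers summed to 1058 to 1442 in mimic livers and to 575 to 983 in scrambled livers, without overlap. The part of length and of these markers in the differences was not tested. Outside the set, Cyp3a57 was lower in the P7 mimic livers, at 16, 17 and 9 against 31, 27 and 30, by -1.06 ± 0.34 (adjusted p = 0.369), and Cyp3a63-ps was higher in the P14 mimic livers, at 191, 216 and 283 against 190, 140 and 141, by 0.54 ± 0.21 (adjusted p = 0.770).

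Because these differences had opposite signs at P7 and P14, the age step was also taken within each injection. Cyp3a13 rose by 0.64 ± 0.14 from P7 to P14 in scrambled livers (adjusted p = 0.00199 by limma) and differed by 0.03 ± 0.14 in mimic livers (adjusted p = 0.899). From P5 to P7 the order was turned round: the difference was 0.01 ± 0.14 in scrambled livers (adjusted p = 0.971), while Cyp3a13 rose by 0.49 ± 0.14 in mimic livers (adjusted p = 0.0392). Cyp3a25 rose from P7 to P14 by 0.65 ± 0.10 in scrambled and by 0.30 ± 0.10 in mimic livers, and Cyp3a59 by 0.97 ± 0.18 and 0.57 ± 0.18. Cyp3a11 rose by 0.42 ± 0.12 in scrambled livers and differed by 0.27 ± 0.12 in mimic livers (adjusted p = 0.0814). Cyp3a41a fell in both, by 1.53 ± 0.34 and by 1.49 ± 0.34. The test of the difference between these steps called no member, against 0.00709% of genes. It gave -0.61 ± 0.20 for Cyp3a13 (adjusted p = 0.449), -0.34 ± 0.14 for Cyp3a25 (adjusted p = 0.558) and -0.41 ± 0.26 for Cyp3a59 (adjusted p = 0.728). The step of these genes was therefore not shown to differ between mimic and scrambled livers.

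Cyp3a41 and Cyp3a44 are known for higher levels in adult females, so the members were also read against the summed Y-linked genes. The slope from the lowest to the highest Y-linked level lay between -0.08 and 0.16 for the 7 members (each adjusted p = 1.00 by limma), and 0.0355% of all genes passed, the 4 Y-linked genes and Xist. For Cyp3a41a it was -0.08 ± 0.29, for Cyp3a44 0.02 ± 0.11 and for Cyp3a59 0.16 ± 0.15. A sex difference of the adult kind was not detectable at these ages with 9 livers on each side.

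Known regulators of the family were followed as a list of 22 genes, of which 21 were tested. From P7 to P14 6 rose and 2 fell, with a median of 0.16 against 0.01 for all genes. Of all genes 24.0% rose and 26.3% fell over this step, so the count of rises was near the background. From P5 to P14 17 regulators rose and none fell, against 23.9% and 24.8% of all genes. From P7 to P14 Nr1i3, which encodes CAR, rose by 0.30 ± 0.09 (adjusted p = 0.0116 by limma), from 546 to 715 scaled counts at P7 to 626 to 872 at P14. It passed in neither injection alone (adjusted p = 0.1002 in scrambled and 0.0730 in mimic livers), and with the red cell covariate its value was -0.16 ± 0.39. Nr1i2, which encodes PXR, differed by 0.16 ± 0.07 (adjusted p = 0.0597) and passed under quantile normalization (adjusted p = 0.0368). From P5 to P14 Nr1i2 rose by 0.23 ± 0.07 (adjusted p = 0.0106 by limma). Hnf4a differed by 0.01 ± 0.07 from P7 to P14 (adjusted p = 0.940). It had risen by 0.31 ± 0.07 from P5 to P7 (adjusted p = 0.00857 by limma). From P5 to P14 it rose by 0.31 ± 0.07 (adjusted p = 0.00170). Over the step from P7 to P14 Cebpb, a C/EBP factor, rose by 0.53 ± 0.10, Foxa2 by 0.41 ± 0.09 and Nr0b2, the repressor SHP, by 0.70 ± 0.13. The corepressor gene Ncor1 fell by 0.53 ± 0.12, after a rise of 0.45 ± 0.12 from P5 to P7 (adjusted p = 0.0114 by limma). From P5 to P14 Ncor1 differed by -0.08 ± 0.12 (adjusted p = 0.597), so no net fall was seen. The call of Cebpb was lost in scrambled livers alone and those of Foxa2 and Nr0b2 in mimic livers alone. With the red cell covariate Foxa2 and Nr0b2 were at -0.026 ± 0.39 and -0.30 ± 0.54, signs that were not resolved.

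Of 7 genes for redox partners and heme supply, 3 rose from P7 to P14 and none fell, against 24.0% and 26.3% of all genes: Alas1, the first enzyme of heme synthesis, by 0.28 ± 0.08, Pgrmc1, a heme-binding partner, by 0.24 ± 0.08, and Cyb5a, cytochrome b5, by 0.23 ± 0.09. None of these 3 passed within either injection, and the call of Cyb5a was also lost without the filter (adjusted p = 0.0673), without the variance trend (adjusted p = 0.0594) and in 7 fits with 1 liver left out. From P5 to P14 Alas1 rose by 0.67 ± 0.08 (adjusted p = 2.04e-06 by limma). Pgrmc1 differed by 0.17 ± 0.08 (adjusted p = 0.0716) and Cyb5a by 0.04 ± 0.09 (adjusted p = 0.737), so neither passed over the whole span. Of the 7 genes 3 rose over that span and none fell, against 23.9% and 24.8% of all genes. Por, the oxidoreductase that all members depend on, had 1066 to 1257 scaled counts at P7 and 1099 to 1472 at P14, a difference of 0.15 ± 0.06 (adjusted p = 0.0533 by limma). It passed with TMM scaling (adjusted p = 0.0347) and in scrambled livers alone (adjusted p = 0.0148). From P5 to P14 Por rose by 0.24 ± 0.06 (adjusted p = 0.00305 by limma).

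Other genes known to respond to PXR and CAR were a list of 17, of which 15 were tested. From P7 to P14 7 rose and 2 fell, against 24.0% and 26.3% of all genes. Cyp2c29, at 7 to 25 scaled counts at P5 and 791 to 1156 at P14, rose by 4.50 ± 0.32, and Cyp2c55 by 2.99 ± 0.32. The transporter gene Slco1a4 rose by 2.44 ± 0.30 and the retinal dehydrogenase gene Aldh1a1 by 0.95 ± 0.16. The rises of these 4 genes were larger than the 0.77 of Cyp3a59, the largest among the members.

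For growth hormone signalling, 6 of 10 genes rose from P7 to P14 and 1 fell, against 24.0% and 26.3% of all genes, the shares to set beside the 2 lists that follow as well. Igf1, its best-known liver target, rose by 0.59 ± 0.09, Stat5a by 0.70 ± 0.12, Stat5b by 0.29 ± 0.08 and the repressor gene Bcl6 2.46-fold, while Jak2 fell by 0.74 ± 0.09. In mimic livers alone Stat5b differed by 0.04 and did not pass, and with the red cell covariate Stat5a was at -0.16 ± 0.47. Of 9 tested genes that adult females carry at higher levels, 6 rose and none fell, among them Sult2a1 (1.42 ± 0.11), Cyp2b13 (1.33 ± 0.16) and Cyp2a4 (1.14 ± 0.23). Cyp3a41a and Cyp3a41b, also known as female forms, went the other way over the same step. Of 4 tested genes that adult males carry at higher levels, 1 rose, Cyp7b1 by 0.78 ± 0.18, and 2 fell, with Cyp2d9 falling by 0.23 ± 0.08. The call of Cyp2d9 was lost without the 3 livers named above (adjusted p = 0.0535), in mimic livers alone (adjusted p = 0.377) and in 3 fits with 1 liver left out, and that of Cyp7b1 in scrambled livers alone (adjusted p = 0.148).

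Around the cluster, 17 other genes within 500 kb were tested, of which 4 rose and 4 fell from P7 to P14, with a median of 0.06. Over the whole span from Cyp3a13 to Cyp3a59 with 500 kb on each side, 26 of 118 rose and 34 fell. Both counts were near the shares of all genes, 24.0% and 26.3%. Of 5 other genes inside the cluster none reached the mean of 10.

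The genes most like each member were found by Pearson's r of log2 values over the 18 livers, a description in which all genes share the age steps and the libraries. Cyp3a59 had Cyp4v3 (r = 0.979), a fatty acid hydroxylase gene, and Pls3 among its closest. Cyp3a25 was closest to Osbpl9 (r = 0.964), Dnase2b and Lpl, and Cyp3a13 to Hal (r = 0.961), Sqor and Cyp2b10. Cyp3a11 was closest to Ndfip1 (r = 0.974), Cyp2a12 and Cdo1, which encode a steroid-oxidising P450 and cysteine dioxygenase. Cyp3a41a was closest to Polh (r = 0.947), Igf2bp3, a fetal RNA-binding protein gene, and Clint1. The members that varied least had lower values, with C1s1 (r = 0.907) for Cyp3a16 and Ppp1ca (r = 0.820) for Cyp3a44. Members of the family were left out of this search.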

How the data were processed

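The mRNA of 18 livers was sequenced with a stranded kit, per the labels. Per the submitters' processing notes, the reads went through DESeq2 1.26.0, featureCounts 1.6.5, STAR 2.6.1d, Trimmomatic 0.39 and Picard 2.21.7 (in no stated order) with mm10/GRCm38. The roles and settings of these tools are not given in the sources used here. The deposited values are a score per gene: counts scaled between libraries and rounded by the authors. Their totals per liver were 3954405 to 4248257. The raw depth is unknown, so no counting interval is given and a count test was not used.

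Genes with a mean of 10 or more were fitted over all 18 livers with limma 3.58.1 (R 4.3.3, with the data.table package at 1.17.8) on log2(value + 1), a scale that understates changes of low genes, with group means and a trend in the variance. P-values were two-sided and adjusted by Benjamini-Hochberg over 14104 genes, with a threshold of 0.05. Age steps average both injections. The code was tested on simulated data. Transcripts and lengths came from GENCODE M21, promoter windows from RefSeq. Python 3.11.15, numpy 2.4.6, pandas 2.3.3, Biopython 1.88 and matplotlib 3.10.9 were used.

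The members and lists were chosen with earlier results of these data known. Besides all Cyp3a rows, the rule allowed the text to name up to 4 genes per list and near the genes, by smallest p from P7 to P14, 5 regulators always, and the 3 genes most like each member. Alternatives changed the pseudocount, filter, scaling, libraries, variance trend, replicate block and covariates. Some genes the rule names are not reported here.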

Additional observations from a re-analysis of the deposited data

Results flagged for a closer look

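Of 24 groups of 6 livers checked, 3 held a liver far from the other livers of its day, and chance flags about 1 in 20 groups. At P5 both cases came from scrambled replicate 2. Its Cyp3a11 value was 1650, with the other livers at 1113 to 1203. Its Cyp3a25 value was 855, with the other livers at 642 to 696. This liver also had the highest Alb at P5, 2886 against 1855 to 2328. At P14 mimic replicate 1 had 4 scaled counts of Cyp3a41a, with the other livers at 11 to 14, a difference of few counts.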

How the results depend on the processing

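From P5 to P7, 1 member was called in the fit of all livers, and 2 were called with the replicate block, 0 in scrambled groups only, 2 in mimic groups only, 2 without the 3 livers that stand apart (chosen after seeing the data) and 1 to 2 with 1 liver left out. With the replicate block Cyp3a13 passed at this step by limma. From P7 to P14, 5 were called, and 0 with the red cell covariate and 3 in mimic groups only. From P5 to P14 the covariate also left 0 of 5, and at both steps the standard errors grew, for Cyp3a25 from 0.07 to 0.31 and 0.34. The replicate block changed neither of these counts. Between mimic and scrambled livers of the same day and replicate number, deviations from group means correlated above 0.1 in 2 of 9 pairs. The correlations ran from -0.234 to 0.244. With 3 livers a group, this cannot settle whether replicate numbers pair the livers. No member passed a mimic comparison under any setting.

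Per kb of transcript with unique 50-base stretches, shares changed from P5 to P14 by 3.66 points for Cyp3a11, 0.858 for Cyp3a16, 5.81 for Cyp3a25, -16.3 for Cyp3a41a, -1.29 for Cyp3a41b and -1.86 for Cyp3a44, the first 2 with a reversed sign. The share of Cyp3a41a in this setting rests on 28 unique stretches, which makes all of these shares uncertain.

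Some signs turned, mostly of values near 0. From P5 to P7 Cyp3a11 gave 0.063 in mimic groups, 0.036 without the 3 livers and -0.091 to 0.051 with 1 liver left out, and Cyp3a25 gave -0.074 in scrambled groups. From P7 to P14 Cyp3a44 gave 0.014 with TMM scaling, 0.033 in mimic groups, 0.016 without the 3 livers and -0.048 to 0.041 with 1 left out. Cyp3a57 gave 0.027 with quantile normalization and 0.55 in mimic groups. Cyp3a63-ps gave -0.68 ± 0.61 with the red cell covariate and -0.25 in scrambled groups. That covariate also turned genes called in the fit of all livers, Nr0b2 (-0.30 ± 0.54), Foxa2 (-0.026 ± 0.39), Nr1i3 (-0.16 ± 0.39) and Stat5a (-0.16 ± 0.47). Each of these values was smaller in size than its standard error, so their signs were not resolved. It also turned the uncalled Hnf4a (-0.38 ± 0.31) and Por (-0.048 ± 0.27). Hnf4a also gave -0.043 with quantile normalization, -0.068 in mimic groups, -0.013 without the 3 livers and -0.018 to 0.056 with 1 left out. The mimic difference of Cyp3a59 at P7 was -0.0068 without the 3 livers and -0.0068 to 0.28 with 1 left out. The causes were not tested. With 3 livers a group, small mimic differences could not be resolved, and the raw depth is unknown.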
